A study of Mus musculus with 127 samples.

Results

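The comparison described here sets poly(A) RNA of the synaptic fraction against poly(A) RNA of the cytosolic fraction of wild-type (WT) mouse cortex. Its members are 14 of the 127 labelled libraries of the series: 9 synaptic libraries (5 female, 4 male) and 5 cytosolic libraries (2 female, 3 male). They were chosen by sample title, except that synaptic WT males 1 and 2 were left out and 2 cytosolic WT titles had no matched column. All are from WT littermates of the germline Chd8 line at about postnatal day 60. These mice carry no mutant allele and no Cre. Fractions were made from frozen cortex with a commercial synaptosome reagent, which separates a cytosol from a synaptosome fraction, and a nuclear extraction reagent that yields a further cytosol. The labels do not say which cytosol the cytosolic libraries are. The synaptic libraries of this line were sequenced on a NovaSeq and the cytosolic ones on an AVITI instrument, per the labels' protocols, so fraction, sequencing platform and experiment cannot be told apart in this contrast, and animals were not paired. For that reason a gene was called higher or lower only at 2-fold or more. An exact test of single reference genes, given separately, has no fold minimum. Values from 2 further contrasts are given beside it. One sets 4 synaptic libraries of WT animals of the conditional line (Camk2a-CRE Chd8+/+, AVITI) against the same 5 cytosolic libraries, so that the platform is shared and the mouse line, with its Cre driven in forebrain excitatory neurons, differs instead. The other sets 7 synaptic against 7 cytosolic libraries of heterozygous (HET) Chd8+/5bpdel littermates, which have the platform difference of the WT contrast and share no library with it.

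As background, a synaptosome preparation pellets pinched-off nerve terminals with attached postsynaptic material, and membranes of other kinds come down with them. Cytosol is the soluble part of the cell, with free ribosomes. Messenger RNAs of secreted and membrane proteins are translated at the endoplasmic reticulum (ER), after a hydrophobic segment of the new protein, often at its N terminus, has been recognised. Messenger RNAs of soluble proteins are mostly translated on free ribosomes, and a set of neuronal mRNAs is carried along microtubules into dendrites. RNAs such as Malat1 and Neat1 stay in the nucleus, and mitochondria hold transcripts of their own.

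Library totals ran from 27.9 to 45.96 M gene counts (M, mega) in the synaptic libraries and from 33.6 to 46.01 M in the cytosolic ones. Sex markers matched the labels in all 14 libraries. The 2 synaptic WT libraries left out (males 1 and 2) had 857 and 1221 counts per mega count (CPM, here of library totals) of the nuclear RNA Malat1, against 55.7 to 184 CPM in the 9 used and 1000 to 2777 CPM in 12 nuclear WT libraries. Among the cytosolic libraries male 4 stood apart, with the highest Malat1 (489 CPM) and Meg3 (7710 CPM). In the synaptic libraries sex goes with the batch label: the libraries with labels beginning with 03 (2) and 05 (3) are female, and the 4 with labels beginning with 06 or 07 are male. The cytosolic libraries share 1 batch label. Scaling moved the centre of the comparison. TMM factors were 0.851 to 0.894 in synaptic and 1.27 to 1.30 in cytosolic libraries, and the median log2 fold change of all genes was -0.04 with TMM and -0.61 with library totals alone. All changes are relative to the TMM centre, and CPM values are TMM-scaled unless library totals are named.

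Of 18342 genes tested with edgeR's quasi-likelihood test, 4094 (22.3%) were higher in the synaptic libraries and 1151 (6.28%) were lower, at an adjusted p under 0.05 and at least 2-fold. At 4-fold or more the counts were 1942 higher and 159 lower. The lowest synaptic library lay above the highest cytosolic one for 3324 of the higher genes (81.2%), and the groups were separate for 548 of the lower genes (47.6%). The call itself favours groups that do not overlap, and the share over all genes tested is not given. These 2 shares therefore only describe the called genes. With all 11 synaptic libraries the counts were 3942 and 590, and without the filter on low counts 4170 and 2278. With library totals alone 2828 genes were called higher and 5189 lower, so that the higher share of the calls was 35.3% in place of 78.1%. Against the conditional-line synaptic libraries on the same platform, 3502 of 18383 genes (19.1%) were higher and 478 (2.6%) were lower. In HET libraries 4271 of 19082 genes (22.4%) were higher and 1955 (10.2%) lower. Of the WT higher genes 93.5% were also called higher in HET, which is 89.6% of the HET list. For lower genes the shared part was 72.3% of the WT list and 42.6% of the HET list. No gene was called in opposite directions in WT and HET.

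Nearly all genes of the ER machinery tested were higher in the synaptic libraries. Of 31 genes for ER chaperones, the translocon and the oligosaccharyltransferase, 29 were higher and none lower, with a median log2 fold change of 2.15 (2.51 on the same platform, 2.24 in HET). Rpn1 encodes a subunit of the oligosaccharyltransferase, which attaches sugar chains to new proteins. It stood at 152, 201 and 248 CPM (lowest, median and highest of 9 synaptic libraries) and at 24.9, 22.9, 15.2, 19.9 and 29.8 CPM in cytosolic females 1 and 3 and males 1, 2 and 4. No synaptic library came near the cytosolic range, and the log2 fold change was 3.17 ± 0.16 (SE, adjusted p = 4.0e-11, edgeR). Hspa5, the main ER chaperone, had 369 ± 59.8 CPM in synaptic (SD, n = 9) and 49.6 ± 26.2 CPM in cytosolic libraries (SD, n = 5). Cytosolic male 4 was the highest of the 5, at 94.1 CPM, and still below the lowest synaptic library at 296 CPM. The 2 members that were not called, Sec61b (-0.31) and Sec61g (-0.25), encode small translocon subunits that are anchored by a C-terminal segment.

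**Figure D1:**
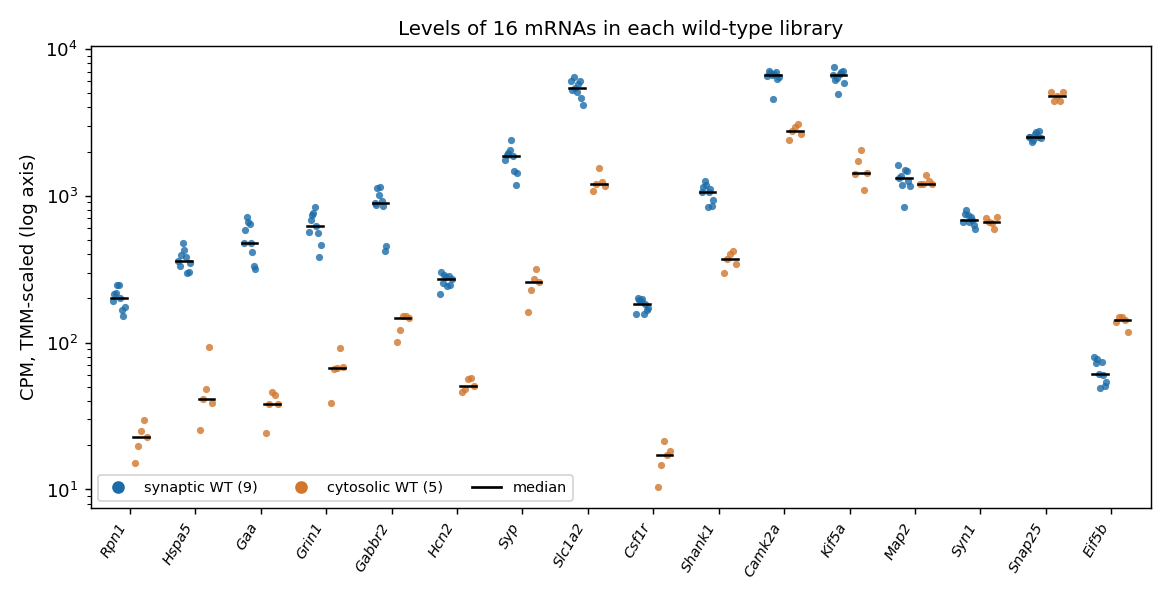
Levels of 16 mRNAs in each wild-type library, in TMM-scaled CPM on a log axis. Each point is 1 library (9 synaptic, 5 cytosolic) and each bar a median. Rpn1, Grin1 and Csf1r are separated by wide gaps, Map2 and Syn1 overlap, and Snap25 and Eif5b are higher in the cytosolic libraries.

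Many of the higher genes encode proteins with a predicted hydrophobic segment. A segment near the N terminus can be read from the start of the coding sequence. It was the only segment in 498 of the 2761 higher genes with any segment. The first 120 coding bases of 5 mRNAs are given to compare 3 that were higher with 2 that were not called. Sequences are from GENCODE M21 on GRCm38, 5′ to 3′ on the sense strand, read across exon junctions. Capitals mark the 19 codons whose residues have the highest mean Kyte-Doolittle hydropathy of the stretch, where that mean reached 1.6; a sequence without capitals did not reach it. Clstn1 (calsyntenin, a neuronal membrane protein, coding region at chr4:149586682-149647561, plus strand), Ctsd (the lysosomal protease cathepsin D, chr7:142376574-142387804, minus strand) and Psap (the precursor of the lysosomal saposins, chr10:60277743-60301726, plus strand) were higher. Eef1a1 (a translation elongation factor, chr9:78478737-78480654, minus strand) and Rab3a (a vesicle GTPase, chr8:70755856-70758085, plus strand) were not called.
Clstn1: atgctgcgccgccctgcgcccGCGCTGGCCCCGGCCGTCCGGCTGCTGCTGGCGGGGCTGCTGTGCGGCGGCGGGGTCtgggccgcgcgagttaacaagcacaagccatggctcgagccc
Ctsd: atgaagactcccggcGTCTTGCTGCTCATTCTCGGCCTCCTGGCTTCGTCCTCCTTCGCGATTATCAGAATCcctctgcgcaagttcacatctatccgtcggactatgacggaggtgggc
Psap: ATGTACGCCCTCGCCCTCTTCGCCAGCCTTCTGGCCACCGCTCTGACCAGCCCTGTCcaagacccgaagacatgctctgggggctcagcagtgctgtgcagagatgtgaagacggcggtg
Eef1a1: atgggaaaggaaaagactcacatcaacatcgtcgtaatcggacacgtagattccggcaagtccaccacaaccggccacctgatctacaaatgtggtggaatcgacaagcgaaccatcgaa
Rab3a: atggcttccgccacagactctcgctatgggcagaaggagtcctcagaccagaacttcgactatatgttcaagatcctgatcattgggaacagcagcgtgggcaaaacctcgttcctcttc
The best windows had means of 1.75 in Clstn1 from residue 8, 2.32 in Ctsd from residue 6 and 1.63 in Psap from residue 1. In Eef1a1 and Rab3a the best means were 0.59 and 1.07. The log2 fold change was 3.33 for Clstn1, 3.50 for Ctsd and 3.36 for Psap, against 0.41 for Eef1a1 and -0.09 for Rab3a.

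Over all protein-coding genes with a coding sequence, the share called went with such segments. This grouping was chosen after values of these data had been seen, so its counts describe and are not tested. Genes with no predicted hydrophobic segment were called higher in 5.49% of 9259 and lower in 4.32%, with a median log2 fold change of -0.23. An N-terminal segment alone, within the first 40 residues, went with 63.4% of 786 genes called higher and a median of 1.41. With 3 or more segments, 69.1% of 1538 genes were higher (median 1.54), and with 2 segments 57.4% of 1089 (median 1.30). A single inner segment gave 28.97% of 1816 (median 0.26). A segment at the C-terminal end alone gave 20.9% of 235, with a median of -0.07. Of the higher coding genes 84.5% had a segment, against 13.6% of the lower and 24.02% of those not called. On the same platform the medians were -0.17 without a segment, 1.57 with an N-terminal segment and 1.69 with 3 or more. At a hydropathy minimum of 1.9 the share called higher was 8.09% without a segment (median -0.19), 65.9% with an N-terminal one, 27.2% with a C-terminal one (median 0.04) and 55.7% with a single inner one (median 1.22). The value of the single inner class thus depended on the minimum chosen.

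**Figure D2:**
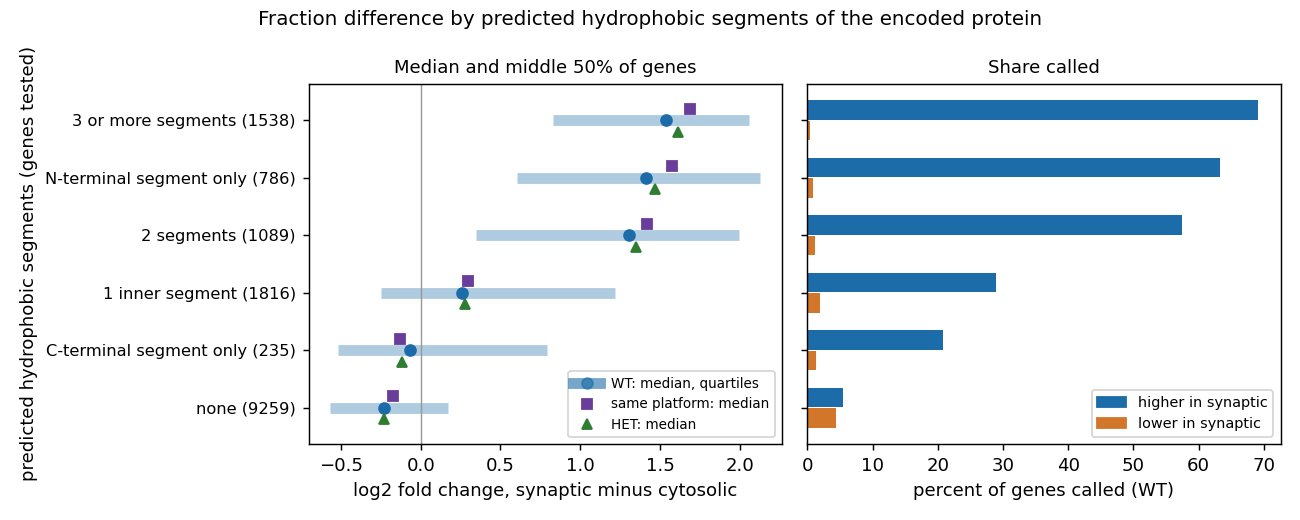
Fraction difference by predicted hydrophobic segments of the encoded protein. Left, median log2 fold change (circle) and middle 50% of genes (bar) in WT, with the medians on the same platform (squares) and in HET (triangles); right, percent of genes called higher or lower in WT. The medians run from -0.23 without a segment to 1.54 with 3 or more.

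Base composition and length were compared within the same grouping. The median GC content was 52.5% in higher genes, 43.4% in lower genes and 50.4% in those not called. Among coding genes in the lowest of 3 equal groups by GC content, 42.0% of genes with a segment and 2.99% of those without were higher. In the highest group the shares were 59.1% and 8.39%. By coding length, 48.7% of genes with a segment were higher in the shortest of 3 equal groups, 56.5% in the middle one and 46.8% in the longest. The shares without a segment were 5.73, 5.39 and 5.31%. The gap between genes with and without a segment was present in each of the 3 groups of both measures. The shares differed between groups of batch labels, which also differ in sex and in the number of libraries: with the 2 synaptic libraries of labels beginning with 03 alone, 33.5% of genes with a segment were higher, against 47.3% with labels beginning with 05 and 51.7% with 06 or 07.

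Receptors and channels of the neuronal surface were higher as groups. Of 22 glutamate receptor genes 21 were higher and none lower (median 1.95), with only Grik2 (0.86) below 2-fold. Grin1, the obligatory NMDA receptor subunit, had 382, 618 and 833 CPM in synaptic libraries and 66.9, 68.6, 38.6, 66.6 and 92.0 CPM in cytosolic ones. Its log2 fold change of 3.24 ± 0.20 (SE, adjusted p = 2.7e-10, edgeR) was the largest of the list. Gria1, an AMPA receptor subunit, had a log2 fold change of 1.97 ± 0.17, and Grm2, a presynaptic metabotropic receptor, one of 2.99 ± 0.19. The lowest values of Grin1, Gria1 and Grm2 among the synaptic libraries were those of female 4, which carries a batch label beginning with 03.

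GABA receptor genes showed 14 of 15 higher and none lower, with a median of 1.87. Gabrd, a subunit of receptors outside the synapse, had 144 ± 19.6 CPM against 18.2 ± 3.897 CPM (SD, n = 9 and 5), and Gabbr2, a subunit of the metabotropic GABA receptor, 855 ± 261 against 135 ± 22.7 CPM. Gphn (-0.27), which encodes the soluble scaffold gephyrin, was the member not called and the one without a segment. Of 41 voltage-gated channel genes 36 were higher and none lower (median 1.63). Cacna2d3, a calcium channel subunit with an N-terminal segment only, led at 2.73 ± 0.14 (SE), followed by Hcn2, a pacemaker channel, at 2.36 ± 0.10. The soluble calcium channel beta subunits Cacnb4 (-0.94), Cacnb1 (-0.14) and Cacnb3 (0.78) were not called, nor were the channel genes Cacna1d (0.94) and Kcnq3 (0.66).

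Further families of membrane and secreted proteins, picked after their values were seen and given as descriptions, were also mostly higher. Of 243 solute carrier genes outside the Slc25 family 183 were higher and 2 lower. The Slc25 genes, whose carriers sit in the inner mitochondrial membrane, gave 4 higher and 1 lower of 42, with a median of 0.05 that was -0.52 with library totals alone. All 22 granin and neuropeptide precursor genes were higher (median 2.71), among them Vgf (3.48), Chga (3.23) and Sst (2.88). The 11 cathepsin genes were all higher (median 2.65), including 5 in which no segment reached the hydropathy minimum. Of 28 other lysosomal genes 26 were higher (median 2.27). Gaa, acid alpha-glucosidase, was the highest of these at 3.76 ± 0.21, with 514 ± 146 CPM against 38.0 ± 8.50 CPM (SD, n = 9 and 5).

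Clustered protocadherins, cell surface proteins of neuronal identity, were higher in 53 of 54 genes tested, with a median of 2.89 (3.24 on the same platform). Pcdhga2 had 16.2 ± 7.79 CPM in synaptic and 1.01 ± 0.463 CPM in cytosolic libraries (SD, n = 9 and 5). The Pcdha and Pcdhg genes share exons within their clusters, so their single values are uncertain. In contrast, none of 19 genes of tail-anchored SNAREs, membrane fusion proteins that are inserted after translation, was higher or lower (median -0.33), although 8 were lower with library totals alone. Among the small soluble Rab GTPases, 1 of 54 was higher and 3 were lower (median -0.41). None was called on the same platform, and 26 were lower with library totals alone. Of all 18342 genes tested, 5189 were lower with library totals alone.

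Genes of the presynapse divided by the kind of protein they encode. Of 61 presynaptic genes 23 were higher and none was lower, with a median of 0.22 that turned to -0.35 with library totals alone. Among the 27 with a predicted segment 20 were higher (median 2.21), and among the 34 without one 3 were higher (median -0.04). Syp, the synaptic vesicle membrane protein synaptophysin, had 1184, 1870 and 2378 CPM in synaptic and 272, 257, 162, 228 and 318 CPM in cytosolic libraries, with a log2 fold change of 2.86 ± 0.18 (SE, adjusted p = 2.9e-10, edgeR). The vesicular transporters Slc17a7 for glutamate (2.32 ± 0.17) and Slc32a1 for GABA (3.31 ± 0.17) were also higher. Syn1, a soluble protein on the surface of the same vesicles, had 693 ± 61.8 CPM in synaptic and 665 ± 46.8 CPM in cytosolic libraries. The 2 ranges overlapped, and the log2 fold change of 0.07 ± 0.08 was not significant (adjusted p = 0.49, edgeR). Snap25, a plasma membrane SNARE held by lipid anchors, had 2308, 2493 and 2775 CPM in synaptic libraries. Its cytosolic values of 4774, 5095, 5098, 4396 and 4425 CPM were all higher, and its log2 fold change of -0.92 ± 0.07 stayed under 2-fold.

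**Figure D3:**
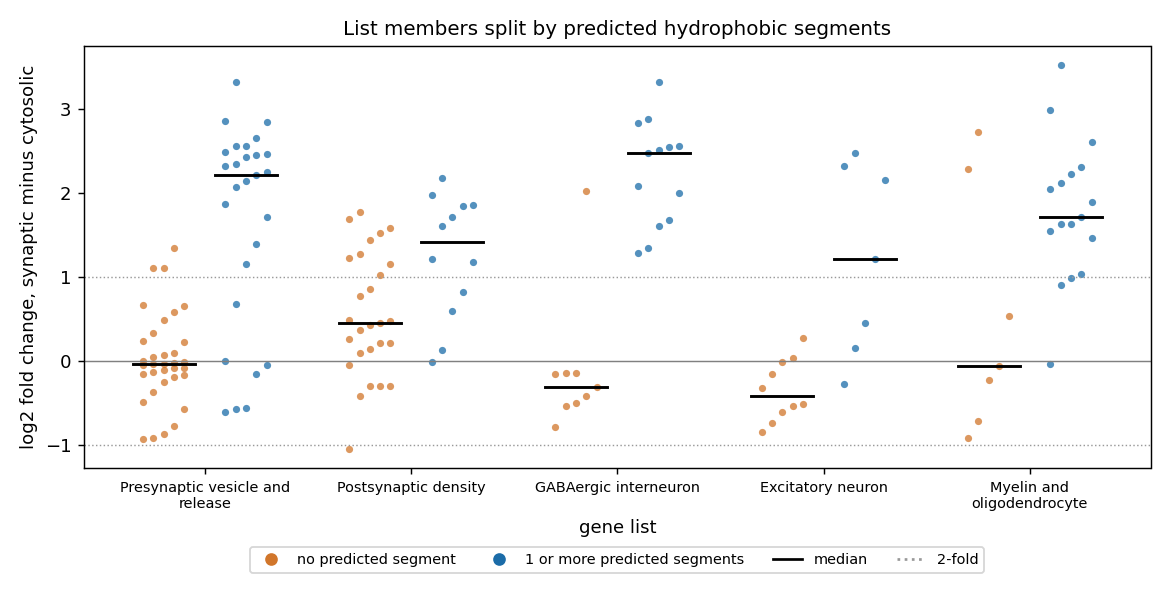
Members of 5 gene lists split by predicted hydrophobic segments. Each point is a gene, bars are medians, dotted lines mark 2-fold, and members without a classified coding sequence are not drawn. In the presynaptic list the medians are -0.04 without and 2.21 with a segment.

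Postsynaptic density genes were higher in 18 of 40 and lower in 1, with a median of 0.79 (0.60 on the same platform, 0.23 with library totals alone). The higher ones included receptor partners and adhesion proteins with segments, such as Lrrtm1 (2.18) and Nlgn2 (1.97). Cacng8 (2.25), an AMPA receptor partner, was the highest and has no classified coding sequence here. The higher genes also included soluble scaffolds: Shank1, Shank3 (1.77) and Dlgap3 (1.69) have no predicted segment. Shank1 had 842, 1054 and 1258 CPM in synaptic and 403, 341, 296, 370 and 422 CPM in cytosolic libraries, which did not overlap, with a log2 fold change of 1.52 ± 0.12 (SE, adjusted p = 5.8e-09, edgeR). Dlg4, which encodes the scaffold PSD-95, had overlapping ranges of 763 to 1330 and 745 to 812 CPM and a log2 fold change of 0.47 ± 0.10. Homer1 was the lower member, at 212 ± 52.3 against 447 ± 111 CPM (SD, n = 9 and 5). Its log2 fold change of -1.05 was -0.03 on the same platform and -0.79 in HET.

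Of 22 mRNAs classically reported in dendrites 13 were higher and none lower (median 1.16), which was 8 higher on the same platform and 4 higher with library totals alone. The last count stands beside 2828 higher of all 18342 genes tested with library totals alone, a similar share. Camk2a, the alpha subunit of the calcium/calmodulin kinase, had 4585, 6610 and 7047 CPM in synaptic libraries and 2920, 2643, 2410, 2740 and 3083 CPM in cytosolic ones. The ranges were separate and the log2 fold change was 1.21 ± 0.11 (SE, adjusted p = 2.2e-08, edgeR). It was 0.85 on the same platform, 0.65 with library totals alone and 0.99 with all 11 synaptic libraries, each under 2-fold. Ddn (dendrin) likewise had 1.27 ± 0.11, and 0.78 on the same platform. Map2, a microtubule protein of dendrites, had 1303 ± 230 and 1248 ± 83.1 CPM, with overlapping ranges and an adjusted p of 0.86 (edgeR). Arc, an activity-induced dendritic mRNA, ran from 104 to 1442 CPM in synaptic and from 44.2 to 534 CPM in cytosolic libraries. This spread left its log2 fold change of 1.03 ± 0.54 short of the threshold (adjusted p = 0.11, edgeR).

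Single reference genes were also compared by an exact two-sided permutation test of mean log2(CPM + 0.5) over the 2002 ways of choosing 5 of 14 libraries. The smallest p this design allows is 0.0005. Camk2a, Ddn, Shank1, Mbp, Gfap, Slc1a2, Snap25, mt-Co1 and mt-Nd1 reached it (adjusted p = 0.00105 over 19 genes, exact permutation test). Dlg4, Meg3, Gapdh, Eef1a1, Actb and Malat1 also passed, with adjusted p from 0.0038 to 0.0297 (exact permutation test). For Map2 (adjusted p = 0.771), Syn1 (0.432), Chd8 (0.306) and Arc (0.212, all by the exact permutation test) the difference was within the spread between libraries.

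Cytoskeleton and motor genes were higher in 12 of 42 and lower in none, beside 22.3% higher among all genes tested. Their median of 0.27 was -0.30 with library totals alone. The members called were mostly motor, spectrin and ankyrin genes, and 10 of the 12 have no segment. Dync1h1, the dynein heavy chain, had 962 ± 276 against 233 ± 39.8 CPM, and Kif5a, a kinesin of axons and dendrites, 6482 ± 769 against 1542 ± 363 CPM (SD, n = 9 and 5). Their log2 fold changes were 2.07 ± 0.19 and 2.05 ± 0.14, and 2.28 and 1.63 on the same platform. Actin and tubulin genes were mostly near 0, as in Actb (-0.20) and Tubb3 (0.25), with Tubb2b (1.17, and 0.47 on the same platform) above 2-fold.

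Mitochondrially encoded RNAs made up 6.78 to 14.96% of counts in the synaptic libraries and 1.89 to 2.51% in the cytosolic ones. All 13 protein-coding genes of the mitochondrial genome were higher, with a median of 2.54 (2.43 on the same platform, 2.42 in HET). mt-Co1, a subunit of cytochrome oxidase, had 27136, 31235 and 51096 CPM in synaptic and 5928, 6396, 5089, 6620 and 5829 CPM in cytosolic libraries. Synaptic females 4 and 5, with batch labels beginning with 03, were the highest. The log2 fold change was 2.45 ± 0.14 (SE, adjusted p = 1.2e-10, edgeR) and 2.43 on the same platform. In mt-Atp6 (5.63 ± 0.31), mt-Co2 (5.54 ± 0.36) and mt-Co3 (5.08 ± 0.34) the difference was far larger, and the same-platform values were smaller, at 3.79, 3.85 and 3.73. In mt-Nd3 (5.29 ± 0.49) the same-platform value was larger, at 6.34. The nuclear genome holds near-identical copies of parts of the mitochondrial genome, so counts of these 4 genes are uncertain. mt-Nd4l (4.78, and 4.70 on the same platform) overlaps mt-Nd4 (2.69), and its counts are uncertain too.

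Most marker genes of glial and vascular cells were also higher in the synaptic libraries. In fractions of bulk cortex the number of cells of a type, RNA per cell and its division between fractions cannot be told apart. Astrocyte markers were higher in 22 of 24 and lower in none (median 1.76), and their summed level was 21314 to 26184 CPM in synaptic and 4614 to 6756 CPM in cytosolic libraries. Slc1a2, the main glutamate transporter of astrocytes, had 5419 ± 740 against 1246 ± 183 CPM (SD, n = 9 and 5) and a log2 fold change of 2.12 ± 0.13 (SE). Clu (3.18) and Sparcl1 (3.02), secreted proteins, led the list. The members not called were Sox9 (0.09), a transcription factor, and Glul (0.70), a soluble enzyme. Gfap, an intermediate filament gene without a segment, was higher at 1.55 ± 0.16.

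Microglial markers were higher in 16 of 18 (median 2.91), with a summed level of 857 to 1112 CPM against 121 to 167 CPM. Csf1r, the receptor for colony-stimulating factor, had 156, 184 and 202 CPM in synaptic and 21.2, 18.2, 10.4, 14.8 and 17.2 CPM in cytosolic libraries, which is a log2 fold change of 3.46 ± 0.15 (SE, adjusted p = 1.8e-11, edgeR). Aif1 (0.37) and Sall1 (-0.09), which encode a soluble protein and a transcription factor, were not called. Myelin and oligodendrocyte markers were higher in 16 of 24 (median 1.63). Mbp, whose mRNA is carried into myelin processes, had 3259 ± 1826 against 421 ± 72.2 CPM and Mag, a myelin membrane protein, 218 ± 40.2 against 27.1 ± 7.86 CPM (SD, n = 9 and 5). Olig2 (-0.04) and Cnp (-0.07) did not differ by 2-fold. Endothelial and mural markers were higher in 18 of 24, with Vtn (3.41) and Bsg (3.01) first, and meningeal and fibroblast markers in 16 of 19, with Col1a1 at 3.10. None of these lists had a lower member, and their part in the other results was not tested. Of members with a segment, 17 of 17 astrocyte, 13 of 13 microglial and 14 of 17 myelin genes were higher. For endothelial and meningeal genes these counts were 17 of 20 and 9 of 10. Without a segment the counts, in the same order, were 5 of 7, 3 of 5, 2 of 7, 1 of 4 and 7 of 9.

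Neuronal subtype markers followed the same division as the presynaptic genes. Of 23 interneuron markers 14 were higher and 1 lower (median 1.61). The 13 with a segment were all higher, with a median of 2.47, while 1 of 9 without one was higher and their median was -0.31. Sst, a secreted peptide of one interneuron class, had 301 ± 35.6 against 41.1 ± 6.37 CPM (SD, n = 9 and 5). The GABA-making enzymes Gad1 (-0.15) and Gad2 (-0.50) and the calcium buffer Pvalb (-0.31) were not called. The lower member, Dlx6os1 (-1.37), is a long noncoding RNA, and was -0.45 on the same platform. Excitatory neuron markers were higher in 4 of 17, namely Lamp5 (2.47), Slc17a7 (2.32), Rtn4rl2 (2.15) and Camk2a (1.21), with a median of -0.02. Striatal markers were higher in 5 of 13. Both counts stand beside 22.3% higher among all genes tested.

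**Figure D4:**
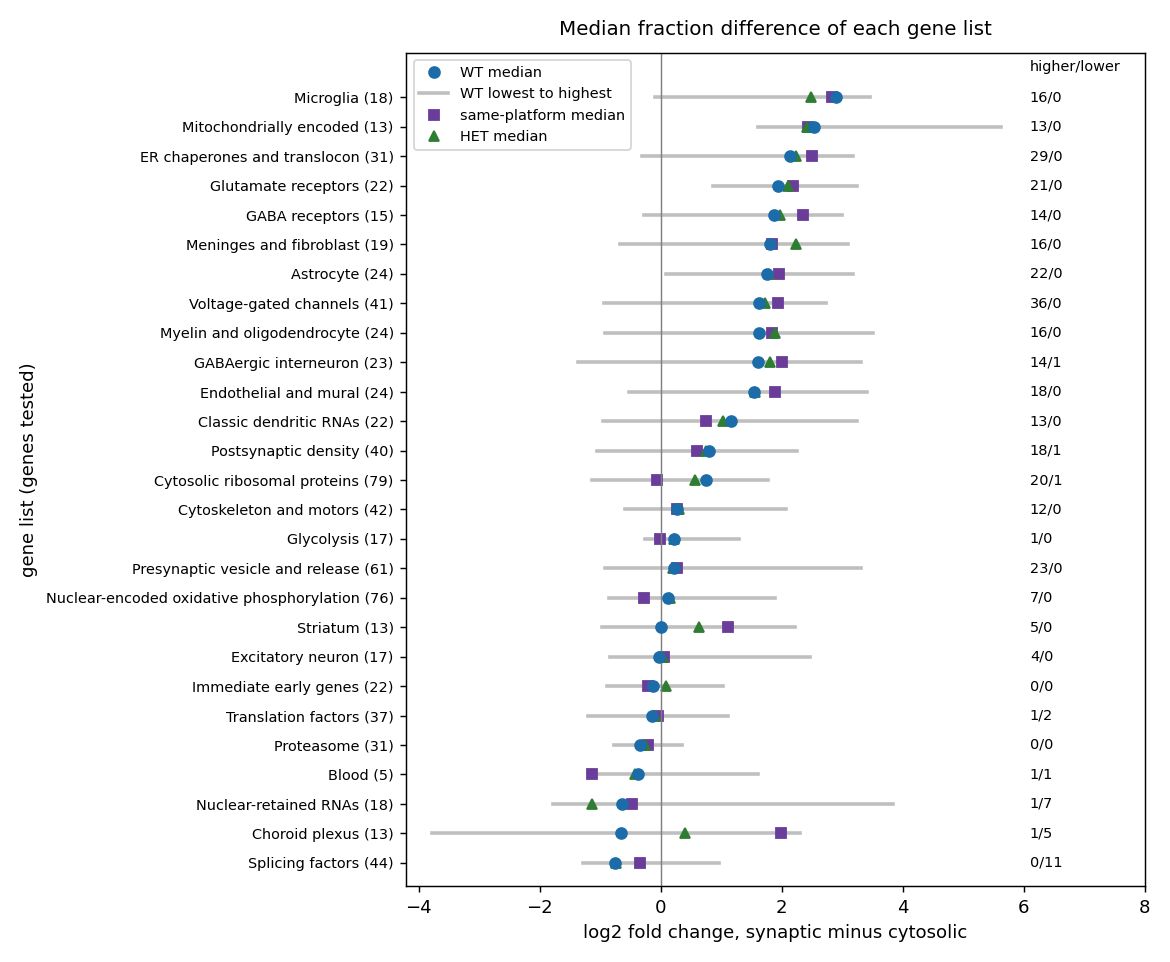
Median fraction difference of 27 gene lists. Circles are WT medians, grey lines the lowest and highest member, squares the same-platform medians, triangles the HET medians, and the numbers at the right the members called higher and lower in WT. Lists of membrane, ER and glial genes lie above 1.5, and splicing factors are lowest at -0.76.

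Genes lower in the synaptic libraries were fewer and changed less. RNAs known to be held in the nucleus were lower in 7 of 18 and higher in 1, with a median of -0.64. Neat1, the scaffold RNA of paraspeckles, had 6.61, 11.3 and 54.1 CPM in synaptic and 32.2, 42.8, 46.1, 43.0 and 80.3 CPM in cytosolic libraries. Synaptic female 5 overlapped the cytosolic range and the other 8 synaptic libraries lay below it. The log2 fold change was -1.78 ± 0.44 (SE, adjusted p = 0.002, edgeR). Meg3, an imprinted neuronal long noncoding RNA, had 995 ± 427 against 2891 ± 1806 CPM (SD, n = 9 and 5) and a log2 fold change of -1.47 ± 0.28. Its cytosolic level was highest in male 4, at 6012 CPM. Malat1 was at -0.99 ± 0.31, just under 2-fold (adjusted p = 0.0094, edgeR), and at -0.26 on the same platform. With all 11 synaptic libraries 1 of the 18 RNAs was lower (median -0.23). The 2 left out had Malat1 at 857 and 1221 CPM and Meg3 at 16349 and 17297 CPM of library totals. The libraries used are thus those low in such RNAs, and the count of 7 depended on that choice. Long noncoding genes as a class were lower in 25.1% of 2391, against 3.17% of protein-coding genes.

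Of the 18 RNAs held in the nucleus, 10 were not called and Xist alone was called higher. On the same platform 2 were higher and 3 lower. Xist, a noncoding RNA, coats the inactive X chromosome of females. In synaptic females 1 to 5 it stood at 75.4, 51.5, 79.7, 21.8 and 156 CPM, and in cytosolic females 1 and 3 at 6.38 and 4.84 CPM. The lowest synaptic female was above both cytosolic females. As a share of library totals Xist was 6.29 to 8.07 CPM in the 2 cytosolic WT females, 7.14 to 20.7 CPM in 5 cytosolic HET females and 142 to 182 CPM in 2 synaptic females of the conditional line. It was 48.2 to 82.4 CPM in 4 synaptic HET females, 191 to 383 CPM in the 5 nuclear WT libraries labelled female and 346 to 916 CPM in 7 whole cortex WT females. The nuclear library labelled WT male 7, used here only in nuclear means and ranges, had Xist at 547 CPM and no counts of Ddx3y, a gene of the Y chromosome, which goes against its label.

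**Figure D5:**
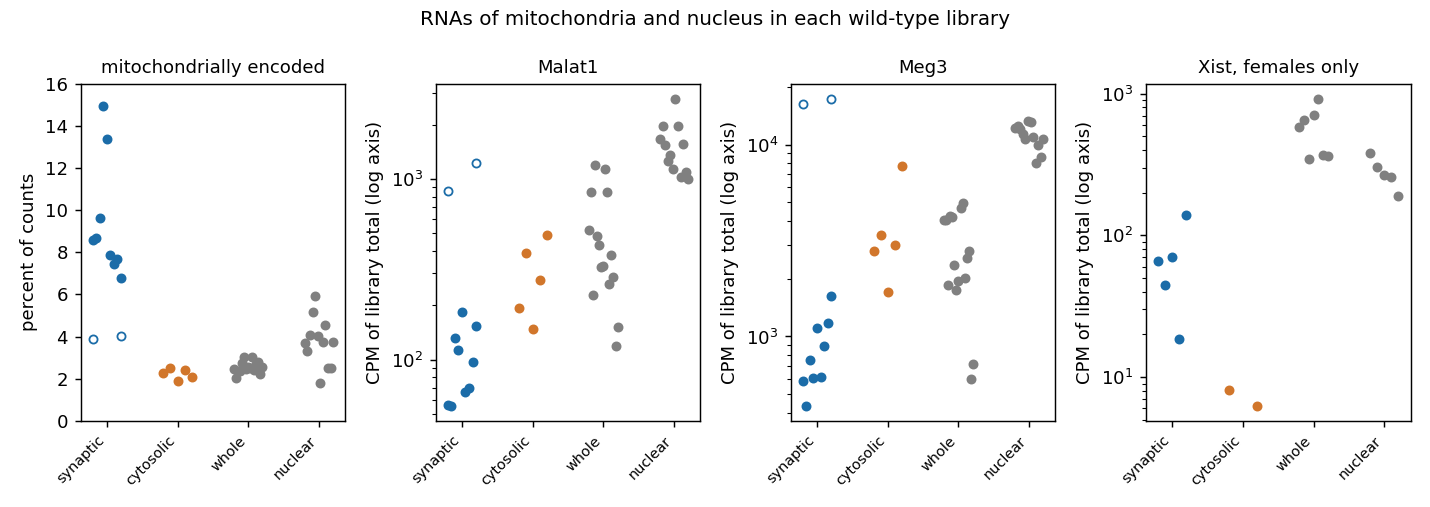
Mitochondrially encoded share of counts, and Malat1, Meg3 and Xist in CPM of library totals on log axes, in each WT library of 4 preparations. Open circles are the 2 synaptic libraries left out. Malat1 and Meg3 are higher in cytosolic than in most synaptic libraries, whereas Xist in females is lowest in the cytosolic ones at 6.29 and 8.07 CPM.

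Splicing factor genes were lower in 11 of 44 and higher in none (median -0.76, and -0.34 on the same platform, where none was lower). With all 11 synaptic libraries 1 was lower, so this count too depended on leaving out the synaptic libraries with high Malat1 and Meg3. Srsf10 had 35.7 ± 4.85 against 86.8 ± 22.0 CPM and Srsf5 129 ± 29.8 against 304 ± 76.9 CPM (SD, n = 9 and 5). Both encode serine-arginine splicing regulators, and their log2 fold changes of -1.28 and -1.25 were -0.36 and -0.53 on the same platform. The 12 lower genes with the largest change that did not overlap between groups included Wsb1 (-1.75 ± 0.24), Clk1 (-1.62 ± 0.30) and Arglu1 (-1.43 ± 0.20). By mean CPM of library totals, 10 of the 12 were higher in nuclear than in synaptic and cytosolic libraries, these genes among them. Clk1, a kinase of splicing factors, had 14.1, 24.8 and 46.5 CPM in synaptic and 60.4, 63.8, 47.6, 75.3 and 201 CPM in cytosolic libraries, the last of these in male 4. All 12 were called lower in HET and 5 on the same platform. Over all lower genes 69.9% had a higher mean CPM of library totals in nuclear libraries than in the synaptic and cytosolic ones. This share was 50.6% of all genes tested and 42.8% of the higher genes. Zinc finger genes of the Zfp series, picked after their values were seen, were lower in 31 of 362 and higher in 4. That share is near the 6.28% of all genes, and 4 were lower on the same platform, 66 without the filter and 226 with library totals alone. Library totals alone gave 5189 lower of all 18342 genes tested. Eif5b and Eif1a, initiation factors of translation, were lower too, at -1.11 ± 0.12 and -1.20 ± 0.09, and at -0.25 and -0.50 on the same platform.

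Several groups depended on which synaptic libraries were used. Cytosolic ribosomal protein genes were higher in 20 of 79 and lower in 1 in the WT contrast (median 0.75), and 0 of 79 were higher on the same platform (median -0.06). Of all genes tested 22.3% were higher in the WT contrast and 19.1% on the same platform. Rps28, for example, ran from 29.2 to 165 CPM in synaptic and from 13.8 to 20.7 CPM in cytosolic libraries, with a log2 fold change of 1.78 ± 0.27 that was 0.21 on the same platform. Synaptic females 4 and 5 were highest. The lower member, Rps10, had 0.820 ± 0.567 against 1.74 ± 0.830 CPM (SD, n = 9 and 5). Its call was lost without any 1 of synaptic females 1, 2 and 3, synaptic males 3 and 5, cytosolic males 2 and 4 and cytosolic female 3, with log2 fold changes from -1.15 to -0.85. Pseudogenes were higher in 721 of 1081 (66.7%, median 2.38), which is 17.6% of all higher genes, and in 25.2% on the same platform (median 0.33). Counts of ribosomal protein genes and their processed copies share sequence and are uncertain. Without pseudogenes 3373 genes were higher. Nuclear-encoded oxidative phosphorylation genes were higher in 7 of 76 (median 0.13), led by Cox6a1 (1.89) and Cox8a (1.56), and in 0 of 76 on the same platform (median -0.27).

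Choroid plexus genes were lower in 5 of 13 and higher in 1, with large differences between single cytosolic libraries. Ttr, the thyroid hormone carrier made by that tissue, had 3.13, 216, 3.85, 3.95 and 51.1 CPM in cytosolic females 1 and 3 and males 1, 2 and 4, and 1.17 to 6.46 CPM in synaptic libraries. Its log2 fold change of -3.78 was 2.03 on the same platform, where the 4 synaptic libraries ran from 5.76 to 616 CPM of library totals, and 0.10 in HET. Clic6, another choroid plexus marker, had 2.43, 17.7, 4.34, 4.05 and 4.00 CPM in the same cytosolic libraries and at most 1.76 CPM in synaptic ones. Every cytosolic library was above every synaptic one, with a log2 fold change of -3.09 that was -0.87 on the same platform (not called) and -1.72 in HET (called). Without cytosolic female 3, Ttr was at -1.88 and Clic6 at -2.25, both still called, and the list's median was 0.27 in place of -0.65, with 3 members lower.

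Housekeeping groups of soluble proteins showed few calls. None of 31 proteasome genes was called (median -0.34), and 12 were lower with library totals alone. Translation factors were higher in 1 of 37 (Eef2, 1.11) and lower in 2 (median -0.15), and 10 were lower with library totals alone. Eef2 was under 2-fold on the same platform (0.66) and in HET (0.98). Glycolysis genes were higher in 1 of 17 gene IDs (Aldoc, an astrocyte isoform, at 1.30, and at 0.67 on the same platform), with a median of 0.22 that was -0.34 with library totals alone. No immediate early gene of 22 was called. Mitochondrial ribosomal protein genes, encoded in the nucleus, were higher in 1 and lower in 1 of 77, and 22 were lower with library totals alone. Of all 18342 genes tested, 5189 were lower with library totals alone. The shares of translation factor and mitochondrial ribosomal protein genes are near that of all genes. Blood genes were higher in 1 (Hba-a2, 1.61) and lower in 1 (Hbb-bt, -1.13) of 5. On the same platform 3 were lower and none higher, with Hba-a2 at -0.38. Chd8 itself had 61.1 ± 11.8 CPM in synaptic and 67.4 ± 4.35 CPM in cytosolic libraries (SD, n = 9 and 5), with an adjusted p of 0.43 (edgeR).

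The difference between fractions was also compared between genotypes and sexes. No gene of 19678 had a fraction difference that differed between HET and WT after adjustment, and 896 had an unadjusted p under 0.05 (edgeR interaction term). With no difference at all, a share of about 0.05 of genes has such a p, and 896 is below that share. Between WT males and females the counts were 0 of 19749 after adjustment and 1421 unadjusted, which is above that share. In the synaptic libraries sex and batch label cannot be told apart.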

How the data were processed

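Poly(A) RNA of cortex fractions was measured by RNA-seq. The authors deposited gene-level read counts, not normalised, which were joined on gene ID (54838 rows, 54723 with a symbol). Per the submitters' processing notes, STAR 2.5.4b was used with GRCm38 and featureCounts 2.0.0 for counting. Strand and read-pair settings are not given in the sources used here, so reads of a gene and of one overlapping it on either strand may be mixed. Of 7 cytosolic WT titles 5 were matched to a column and 2 were not analysed here. Titles name biological replicates, and p-values measure the spread between these libraries. Every pair of libraries within a fraction differed by more than counting error (chi-square of at least 8.21 per degree of freedom).

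The tests used edgeR 4.0.16 under R 4.3.3 with limma 3.58.1: quasi-likelihood fits, TMM scaling, filterByExpr, sex as covariate and Benjamini-Hochberg adjustment over all genes tested. A standard error is the fold change divided by the root of its F value. A gene was called at an adjusted p under 0.05 and at least 2-fold. CPM values are TMM-scaled unless given as CPM of library totals. Two-sided exact permutation tests used log2(CPM + 0.5) and no fold minimum. Interactions of fraction with genotype or sex were fitted in the same way.

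Predicted hydrophobic segments are windows of 19 residues with a mean Kyte-Doolittle hydropathy of at least 1.6 in the protein of the longest coding sequence per gene (GENCODE M21). Terminal classes lie within 40 residues of an end. These segments were not checked against protein data.

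Members and the 27 gene lists were chosen with earlier results of these data known. The 11 further families and the segment classes were chosen after values were seen. Named genes were the 12 largest changes each way with at least 10 CPM in a fraction, an ordinary symbol and no overlap, up to 2 called members each way per list, fixed reference genes and members needed for a count. Clstn1, Ctsd, Psap, Rab3a and members of the further families were named after their values were seen. Alternatives were RLE scaling, library totals alone, no filter, DESeq2 1.42.0, no covariate, a 4-fold minimum, a replicate block, all synaptic libraries, each library left out, synaptic batch labels one group at a time, removal of mitochondrial genes, and the conditional-line and HET contrasts. Figures were drawn with matplotlib 3.10.9. The result of 1 named gene and its family is not reported here.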

Additional observations from a re-analysis of the deposited data

Results flagged for a closer look

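Dixon's test flags about 1 in 20 groups when their values are independent and normally distributed. The groups here share the same libraries, so that rate gives no measure of excess for the count that follows. Among 182 groups of libraries (91 named genes in 2 fractions), 24 (13.2%) had a highest or lowest library that stood apart from the rest by this test. Cytosolic male 4 was in more of them than any other library (11) and was the highest of the 5 cytosolic libraries for Wsb1 (173 CPM), Clk1 (201 CPM), Zcchc7 (109 CPM), Snrnp48 (54.8 CPM), Arglu1 (269.6 CPM), Ints6l (107 CPM), Zfp329 (59.6 CPM), Neat1 (80.3 CPM), Meg3 (6012 CPM), Srsf10 (126 CPM) and Srsf5 (437 CPM). Without it 869 genes were lower in the synaptic libraries in place of 1151. Cytosolic female 3 stood apart for the choroid plexus genes Ttr (216 CPM) and Clic6 (17.7 CPM), and for Chd8 (59.7 CPM, the lowest) and Dlg4 (812 CPM). Cytosolic female 1 was the highest for Pcdhga2 (1.81 CPM), and cytosolic male 1 for the striatal markers Penk (26.5 CPM) and Gpr6 (2.27 CPM). Among synaptic libraries, female 5 stood apart for Neat1 (54.1 CPM), Srsf5 (202 CPM) and Hbb-bt (8.13 CPM), female 4 for Mir124-2hg (40.5 CPM), and male 6 for Sst (385 CPM, the highest) and Camk2a (4585 CPM, the lowest).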

How the results depend on the processing

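The 4094 higher and 1151 lower genes stayed within 1.5 times under RLE scaling, DESeq2, no covariate, each group of synaptic batch labels alone and removal of mitochondrial genes. Leaving out 1 library gave 3997 to 4177 higher and 869 to 1200 lower genes. The lower count was 2278 without a filter, 590 with all 11 synaptic libraries, 478 with conditional-line synaptic libraries, 1955 in HET and 5189 with library totals alone (chosen after seeing the data). At a 4-fold minimum 1942 were higher and 159 lower. Leaving out 1 library gave 3388 to 3605 higher and 325 to 562 lower genes on the same platform, and 4115 to 4473 higher and 1655 to 2138 lower in HET.

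Sign changes among the named genes were as follows. Map2 was -0.12 without a filter, -0.17 with all synaptic libraries, -0.19 and -0.040 with labels beginning with 03 and with 06 or 07, -0.54 with library totals alone, -0.0079 without synaptic male 4 and -0.033 without cytosolic female 3. Syn1 was -0.074 without a filter, -0.16 with all synaptic libraries, -0.089 on the same platform, -0.25 with labels beginning with 03 and -0.50 with library totals alone. Gapdh was -0.036 with all synaptic libraries, -0.24 on the same platform and -0.34 with library totals alone, where Dlg4 was -0.090 and Eef1a1 -0.16. Chd8 was 0.10 on the same platform, 0.020 with labels beginning with 05, and 0.015 with and 0.019 without the block below. Rps27 was -0.025, Hba-a2 -0.38 and Ttr 2.03 on the same platform, and Ttr 0.10 in HET. The causes were not tested.

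The exact permutation test has no fold minimum, so passing it is not a call. By this test with all synaptic libraries the differences were 0.027 for Chd8, -0.11 for Map2, -0.026 for Gapdh and -0.16 for Syn1, and 0.34 for Dlg4, -0.42 for Malat1, -0.74 for Meg3, -0.36 for Actb and 0.19 for Eef1a1 no longer passed. On the same platform they were 0.10 for Chd8, -0.24 for Gapdh and -0.10 for Syn1, it was no longer passed by Dlg4 (0.19), Malat1 (-0.27), Meg3 (-0.95) and Eef1a1 (0.13), and Map2 (0.35) passed. In HET Chd8 (-0.33) and Arc (1.11) passed. Leaving out 1 library gave -1.18 to -0.75 for Malat1 and -0.21 to -0.14 for Actb. Malat1 did not pass without synaptic female 1 or male 4, cytosolic male 2 or 4 or cytosolic female 3, and Actb without synaptic female 1 or cytosolic male 1.

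Replicate numbers shared by both fractions (3 pairs) gave correlations of deviations of 0.137, 0.115 and 0.0707. Each of these 3 synaptic libraries correlated best with the cytosolic library of its own number, among the 3. The library names of a pair differ between the fractions, and the labels do not say that a replicate number marks 1 animal. These correlations are therefore not read as a pairing of animals. A fit with the replicate block on these 6 libraries gave 3712 higher and 1201 lower genes, against 3777 and 1312 without the block. Values of genes near 1 CPM, such as Rps10 (log2 fold change -1.13, SE 0.45), are uncertain. Rps10 ran from 0.126 to 1.98 CPM between synaptic libraries, and the cause of this spread was not tested.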
